A study of Mus musculus with 6 samples.

Results

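The 9 genes *Fshr*, *Lhcgr*, *Prlr*, *Gnas*, *Prkar1a*, *Prkar2b*, *Prkaca*, *Creb1* and *Crem* encode hormone receptors and the cyclic AMP (cAMP) relay beneath them in ovarian granulosa cells (GCs). They were taken by name from a table of 54532 genes, all 9 were found, and all 9 were among the 14463 genes with enough signal to test. The table holds FPKM values, which are fragment counts scaled for gene length and sequencing depth. A comparison of levels between different genes thus depends on the length used for each gene.

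RNA-seq of mouse GCs compared cyclophosphamide (CTX), an alkylating drug, with phosphate buffered saline (PBS). Female ICR mice aged 3 weeks had all been primed with PMSG (5 IU), an equine gonadotropin with follicle-stimulating activity, 22 h before a single injection of PBS or of CTX at 120 mg/kg. The cells were taken 6 h later. There were 3 samples per group, each a pool of GCs from 3 mice, so differences between single mice cannot be seen. Whether CTX altered gene expression and signalling in the GCs was the question of the comparison.

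Follicle-stimulating hormone (FSH) acts on GCs through FSHR, and luteinising hormone (LH) acts through LHCGR, which GCs acquire as the follicle matures. Both receptors couple to the stimulatory G protein whose alpha subunit *Gnas* encodes, and that subunit switches on adenylyl cyclase to make cAMP. cAMP binds the regulatory subunits of protein kinase A (PKA), the catalytic subunits are released, and they phosphorylate CREB, which binds the cAMP response element (CRE) of target genes. PRLR, the prolactin receptor, signals instead through JAK2 and STAT5. *Cyp19a1*, *Inha* and *Prkar2b* itself are known FSH-responsive genes of GCs.

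Of the 9 genes, 0 passed the study's threshold for a change after CTX, more than 2-fold with an adjusted p below 0.05. The test was a limma fit to the FPKM values, not the study's own, and 0.961% of all genes tested passed in it. The CTX samples, however, differed widely among themselves at the receptors. *Lhcgr* ranged from 1.48 to 129 FPKM among the 3 CTX samples and from 108 to 113 FPKM among the 3 PBS samples. All 3 CTX samples lay below all 3 PBS samples for *Fshr*, *Prkar2b* and *Creb1*, and above them for *Gnas*, and 29.2% of all genes tested were separated in one way or the other. In a list of early CREB target genes, chosen with earlier results of these data known, 7 of 9 tested genes were called, all higher after CTX.

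CTX replicate 2 stood apart from the other samples. It was the lowest of the 6 samples in 28.2% of the genes tested and the highest in 29.9%, whereas each other sample was lowest in 13.2% to 15.6% and highest in 9.94% to 16.6%. Results are therefore given with and without it. The samples held 16005869 to 18455011 reads on genes, rebuilt from the FPKM values, and for a gene 1 kb long 3 reads were worth 0.164 to 0.185 FPKM. Among 8 GC markers, *Foxl2*, an identity transcription factor, measured 184 to 193 FPKM after PBS and 145, 76.9 and 107 FPKM in CTX replicates 1, 2 and 3. The *Foxl2* value of CTX replicate 2 was the farthest from PBS. *Amh*, the hormone of small growing follicles, measured 48.4 to 51.1 FPKM after PBS and 54.3, 179 and 85.5 FPKM in those CTX samples. Of the 8 markers, 5 were lowest and 2 were highest in CTX replicate 2. *Cyp19a1* measured 59.2 to 62.4 FPKM after PBS and 47.6, 6.61 and 32.5 FPKM in CTX replicates 1, 2 and 3. GC markers were thus present in all 6 samples but at unlike levels, and *Inha* measured at least 8556 FPKM in each.

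The sequence just upstream of a start site shows which of these genes carry the letters that CREB binds. RefSeq promoters of GRCm38.p6 were searched on both strands, in the 250 bases before each start, for the full palindromic CRE, TGACGTCA, and for its shorter core, TGACG, which the full CRE also contains. The core occurred in 19.8% of the 27025 genes with a promoter in the table, and the full CRE in 1.77%. CACGTG, the E-box through which the *Fshr* promoter is known to work, occurred in 6.86%, and this motif was added after the sequences had been read. The 140 bases before the start are shown for a receptor pair, both main PKA regulatory subunits and a pair of CREB targets, 5′ to 3′ on the strand of the gene. *Prkar1a* has several starts, and the one shown was picked because it held a full CRE. For the other genes the first start listed was taken. Capitals mark the CRE core or full CRE in either orientation, and the E-box.
*Fshr* promoter, minus strand, chr17:89200676-89200815: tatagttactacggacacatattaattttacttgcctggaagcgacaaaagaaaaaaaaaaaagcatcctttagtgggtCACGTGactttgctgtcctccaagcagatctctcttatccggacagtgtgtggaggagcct
*Lhcgr* promoter, minus strand, chr17:88792015-88792154: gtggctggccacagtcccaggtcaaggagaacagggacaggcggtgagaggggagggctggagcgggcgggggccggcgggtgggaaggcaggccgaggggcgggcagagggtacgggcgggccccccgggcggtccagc
*Prkar2b* promoter, minus strand, chr12:32061278-32061417: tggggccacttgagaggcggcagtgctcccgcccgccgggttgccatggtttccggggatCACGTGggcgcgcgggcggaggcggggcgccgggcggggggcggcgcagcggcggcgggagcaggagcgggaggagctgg
*Prkar1a* promoter, plus strand, chr11:109650809-109650948: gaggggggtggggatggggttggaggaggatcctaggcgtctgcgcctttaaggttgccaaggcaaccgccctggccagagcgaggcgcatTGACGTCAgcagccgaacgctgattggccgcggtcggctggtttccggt
*Fos* promoter, plus strand, chr12:85473750-85473889: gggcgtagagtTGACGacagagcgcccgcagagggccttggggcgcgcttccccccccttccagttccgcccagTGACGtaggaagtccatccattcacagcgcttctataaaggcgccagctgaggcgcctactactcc
*Nr4a1* promoter, plus strand, chr15:101266706-101266845: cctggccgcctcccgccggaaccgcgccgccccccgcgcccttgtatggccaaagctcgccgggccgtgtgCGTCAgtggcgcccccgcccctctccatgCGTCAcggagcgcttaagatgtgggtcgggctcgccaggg

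*Fshr*, *Lhcgr* and *Prkar2b* held no CRE core in the 250 bases searched, while *Fshr* and *Prkar2b* each held an E-box, beginning 61 and 80 bases before the start. Of the 8 genes under study with a promoter in the table, 4 held a core and 4 held an E-box before at least 1 of their starts. A full CRE was held by 1, *Prkar1a*, and begins 49 bases before the start shown. These 8 genes have 20 starts, and a gene with more starts has more sequence searched. Counted by start, 8 of the 20 (40%) held a core, against 17.8% of the 32851 starts of all genes. *Fos* and *Nr4a1* held 2 cores each in the stretch shown, and all 10 matched genes of the early CREB target list held a core. That list was made of genes described as CREB targets, with earlier results of these data known, so its share describes the list. A match of letters is not a measured binding site.

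*Fshr* (chromosome 17, 88985170 to 89200612, minus strand, GRCm38), the receptor that receives the PMSG signal, measured 92.2, 88.5 and 94.5 FPKM in PBS replicates 1, 2 and 3. In CTX replicates 1, 2 and 3 it measured 80.5, 42.8 and 69.9 FPKM. The groups did not overlap, and the lowest sample stood at 46.7% of the PBS mean. The means were 91.8 ± 3.04 and 64.4 ± 19.4 FPKM (SD, n = 3), a log2 fold change of -0.56 with a 95% confidence interval from -1.10 to -0.01 and an adjusted p of 0.248 (limma, Benjamini-Hochberg). Without CTX replicate 2 the log2 fold change was -0.29 (interval -0.49 to -0.09, adjusted p = 0.134, limma). In bulk samples fewer cells of a type and less RNA per cell cannot be told apart, here and for every value that follows.

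*Lhcgr* (chromosome 17, 88741549 to 88791976, minus strand) measured 112, 113 and 108 FPKM after PBS and 129, 1.48 and 53.1 FPKM in CTX replicates 1, 2 and 3. CTX replicate 1 lay above every PBS sample, and the other CTX samples lay far below. These values rested on 4486 to 5295 reads per PBS sample and on 5951, 67 and 2428 reads in the CTX samples, so CTX replicate 2 stood at 1.33% of the PBS mean. The log2 fold change was -2.33, with an interval from -6.05 to 1.38 and an adjusted p of 0.424 (limma). Without CTX replicate 2 it was -0.43 (interval -1.25 to 0.40, adjusted p = 0.533, limma). The deposited gene model of *Lhcgr* covers 2553 bases, while GENCODE M21 gives it 7645 exonic bases, so its levels refer to the deposited model.

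*Prlr* (chromosome 15, 10177238 to 10349180, plus strand) measured 16.9, 14.4 and 12.8 FPKM after PBS and 19.1, 2.80 and 12.3 FPKM in CTX replicates 1, 2 and 3. The order of the CTX samples was that of *Lhcgr*, with CTX replicate 1 above and CTX replicate 2 below all other samples. The log2 fold change was -0.73 with an interval from -2.33 to 0.87 (adjusted p = 0.551, limma), and without CTX replicate 2 it was 0.07 (interval -0.43 to 0.57, adjusted p = 0.882, limma). *Prlr* has 12 annotated transcripts in GENCODE M21, for long and short receptor forms, which a value per gene does not separate.

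The balance between both gonadotropin receptors was read within each sample, where scaling between samples has no effect. *Lhcgr* made up 54.8%, 56.1% and 53.4% of the summed FPKM of both after PBS, and 61.5%, 3.34% and 43.2% in CTX replicates 1, 2 and 3. The size of this share depends on the deposited gene models. The PBS samples lay close together, and the CTX samples ran from above to far below them (two-sided exact permutation test, p = 0.40). The mean log2 ratio of *Lhcgr* to *Fshr* differed by -1.80 (standard error 1.69) with CTX replicate 2 and by -0.14 without it.

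Theca cells, which surround the GCs and also carry LHCGR, may be present in such a preparation. The theca and interstitial markers summed to 50.4 to 54.6 FPKM after PBS and to 63.2, 24.6 and 41.8 FPKM in CTX replicates 1, 2 and 3. Of the 7 markers, 4 were lowest in CTX replicate 2. A log2 fold change above 0 was found for 5 of the 7, with a median of 0.44, or 0.69 without CTX replicate 2. *Cyp17a1*, the androgen-forming enzyme of theca cells, measured 30.8 to 34.4 FPKM after PBS and 29.6, 1.25 and 12.4 FPKM after CTX, whereas *Insl3*, another theca gene, measured 0.270 to 0.396 FPKM after PBS and 0.354, 0.814 and 1.16 FPKM after CTX. The 9 leukocyte markers summed to 22.9 to 25.8 FPKM after PBS and to 39.0, 72.0 and 27.2 FPKM after CTX, with 5 of the 7 tested highest in CTX replicate 2. Endothelial markers summed to at most 5.52 FPKM in any sample, 1 of 6 was tested, and *Cdh5* measured 3.66 to 4.49 FPKM after PBS and 2.99, 1.25 and 3.11 FPKM after CTX. Markers of other cells thus moved in both directions in CTX replicate 2. The 7 oocyte markers summed to 32.6 to 68.4 FPKM after PBS and 45.3 to 82.7 FPKM after CTX, and the 5 erythroid markers to 319 to 454 and 138 to 497 FPKM. Of the 4 pericyte and smooth muscle markers, *Acta2*, smooth muscle actin, rose from 8.06 ± 0.482 to 17.3 ± 2.93 FPKM (SD, n = 3, adjusted p = 0.017, limma), a call lost on the adjusted p without any 1 PBS sample and without CTX replicate 3, and on the fold threshold without CTX replicate 2 (log2 fold change 0.95), and the sum of the list was 8.63 to 9.86 FPKM after PBS and 16.2 to 21.1 FPKM after CTX. The part of other cell types in the receptor values was not tested.

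**Figure D1:**
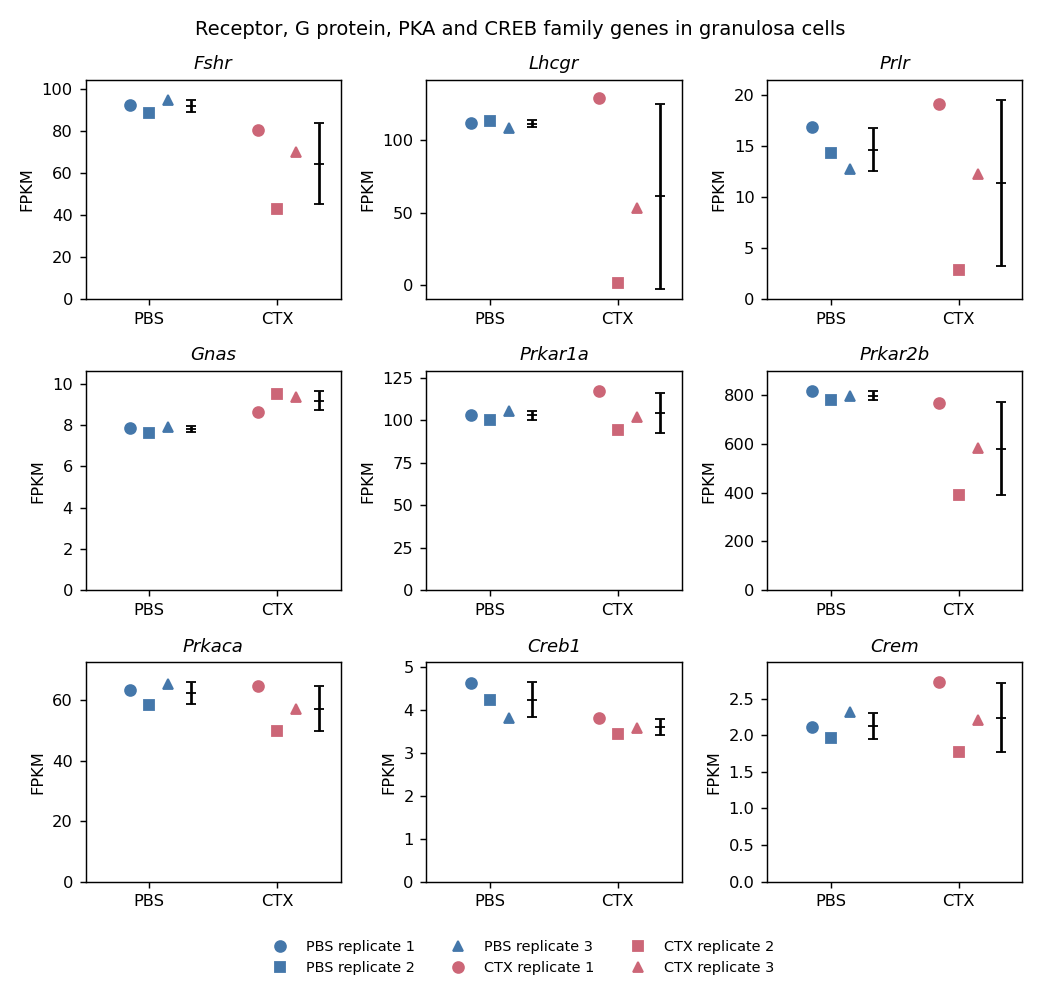
FPKM of each of the 9 genes (y axis, starting at or just below 0) in the 3 PBS and 3 CTX samples (x axis), with symbols for replicates and bars for mean ± SD. CTX replicate 2 is the lowest point in every panel except that of *Gnas*, and its *Lhcgr* value of 1.48 FPKM lies near 0.

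*Gnas* (chromosome 2, 174284320 to 174346744, plus strand) measured 7.89, 7.65 and 7.90 FPKM after PBS and 8.65, 9.54 and 9.37 FPKM after CTX. Each CTX value exceeded the highest PBS value. The means were 7.81 ± 0.142 and 9.19 ± 0.471 FPKM (SD, n = 3), a log2 fold change of 0.23 (interval 0.06 to 0.40) that did not pass correction over all genes (adjusted p = 0.172, limma). It stayed at 0.20 without CTX replicate 2 (adjusted p = 0.203, limma). *Gnas* is a complex locus with several first exons and 24 annotated transcripts, and its FPKM divides reads by all 11186 exonic bases, so its level understates the transcript of the stimulatory subunit beside other genes. On the opposite strand, *Gm20721* shares 1469 of these bases and *Nespas* shares 988, and they measured at most 0.226 and 0.177 FPKM in any sample. The sources used here do not say that counting used strand.

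*Prkar2b* (chromosome 12, 31958476 to 32061296, minus strand), the type II beta regulatory subunit that GCs build up under FSH, was the most abundant of the 9 genes. It measured 815, 779 and 795 FPKM after PBS and 767, 389 and 584 FPKM in CTX replicates 1, 2 and 3. The groups did not overlap, although CTX replicate 1 lay just below the PBS samples, at 96.3% of their mean. The log2 fold change was -0.51 (interval -1.09 to 0.07, adjusted p = 0.290, limma), and without CTX replicate 2 it was -0.25 (interval -0.58 to 0.08, adjusted p = 0.357, limma).

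*Prkar1a* (chromosome 11, 109649405 to 109669656, plus strand), the type I alpha regulatory subunit, measured 103, 100 and 105 FPKM after PBS and 117, 94.1 and 102 FPKM after CTX. The groups overlapped on both sides, and the log2 fold change was 0.02 (interval -0.21 to 0.24, adjusted p = 0.942, limma), or 0.09 without CTX replicate 2. *Prkaca* (chromosome 8, 83972993 to 83996443, plus strand), the main catalytic subunit, measured 63.4, 58.4 and 65.4 FPKM after PBS and 64.8, 49.7 and 57.1 FPKM after CTX, with a log2 fold change of -0.13 (interval -0.39 to 0.13, adjusted p = 0.516, limma), or -0.03 without CTX replicate 2. These intervals leave room for modest changes of both genes but not for a 2-fold one.

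The makeup of PKA mRNA was read within samples. *Prkar2b* held 87.6%, 87.5% and 87.2% of the summed FPKM of the 4 regulatory subunit genes after PBS, and 85.5%, 77.7% and 83.5% in CTX replicates 1, 2 and 3. The share after CTX was below every PBS value, with means of 87.5% ± 0.239 and 82.2% ± 4.04 (SD, n = 3). As a log2 ratio of *Prkar2b* to the other 3 genes, the difference was -0.57 (standard error 0.23, p = 0.10 in a two-sided exact permutation test, where no p below 0.10 is possible for groups of 3) and -0.35 without CTX replicate 2. The other regulatory subunits were low, with *Prkar2a* at 8.98 to 9.82 FPKM after PBS and 10.5 to 13.0 FPKM after CTX, and *Prkar1b* at 1.67 to 2.19 and 2.16 to 4.48 FPKM.

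Regulatory subunit mRNA was lower relative to catalytic subunit mRNA in every CTX sample than in any PBS sample. The summed regulatory FPKM was 11.9, 12.5 and 11.7 times that of *Prkaca* and *Prkacb* after PBS, and 11.3, 7.82 and 9.94 times after CTX. No CTX sample reached the PBS range (difference in log2 ratio -0.33, standard error 0.16, two-sided exact permutation test, p = 0.10). The regulatory genes other than *Prkar2b* summed to 111 to 117 FPKM after PBS and 112 to 130 FPKM after CTX. The lower ratio thus restates the *Prkar2b* values and does not hold for the other regulatory genes. Without CTX replicate 2 the difference in log2 ratio was -0.18. *Prkacb*, the second catalytic gene of the ratio, measured 12.7 to 14.6 FPKM after PBS and 13.2 to 14.7 FPKM after CTX.

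**Figure D2:**
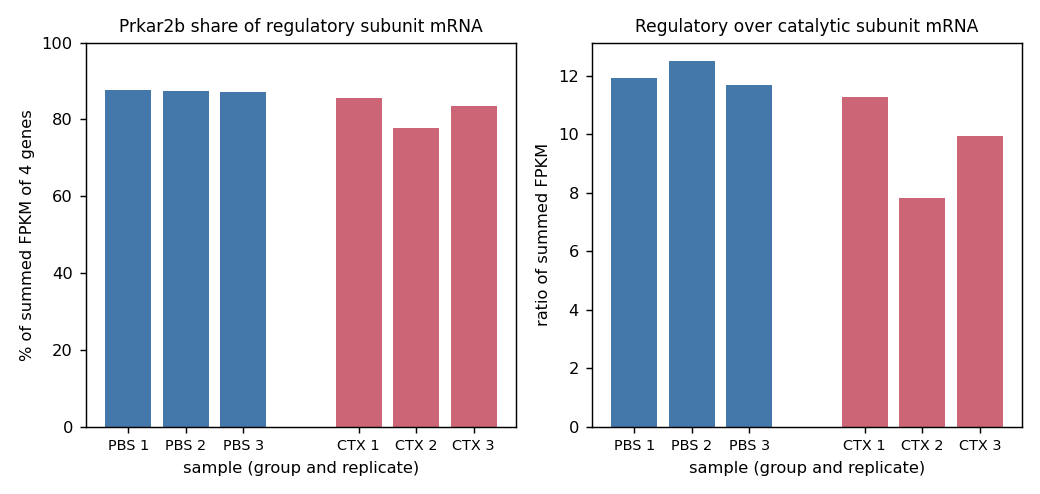
PKA subunit mRNA in each sample (x axis, PBS and CTX replicates 1 to 3), with 1 bar per sample. The left panel gives the *Prkar2b* share of regulatory subunit FPKM in percent, which is lowest, at 77.7%, in CTX replicate 2, and the right panel gives the ratio of regulatory to catalytic FPKM, from 11.7 to 12.5 after PBS and from 7.82 to 11.3 after CTX.

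*Creb1* (chromosome 1, 64532645 to 64604548, plus strand), the activator that PKA phosphorylates, measured 4.65, 4.25 and 3.83 FPKM after PBS and 3.81, 3.44 and 3.58 FPKM after CTX. The highest CTX sample lay just under the lowest PBS sample. The log2 fold change was -0.22 (interval -0.47 to 0.03, adjusted p = 0.290, limma) and -0.19 without CTX replicate 2 (adjusted p = 0.398, limma). *Crem* (3266048 to 3337748 on the minus strand of chromosome 18), which encodes activators and the early repressor ICER from an internal promoter, measured 2.11, 1.96 and 2.31 FPKM after PBS and 2.72, 1.78 and 2.22 FPKM after CTX. Its groups overlapped, with a log2 fold change of 0.05 (interval -0.37 to 0.48, adjusted p = 0.886, limma), or 0.20 without CTX replicate 2. A value per gene cannot separate ICER from the 39 annotated transcripts of *Crem*, and 186 to 291 reads per sample stood behind it. *Crem* stood at 0.455, 0.462 and 0.605 times *Creb1* after PBS and at 0.714, 0.517 and 0.618 times after CTX, ranges that overlapped (two-sided exact permutation test, p = 0.20).

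With limma's adjusted p alone, without the fold threshold, the count over the 9 genes was again 0, against 1.76% of all genes. At an unadjusted p below 0.05 there were 2, *Fshr* and *Gnas*, and 19.6% of all genes tested passed that limit. The samples of the groups did not overlap in 4 of the 9 genes, 3 with CTX below and 1 with CTX above, or 44.4% beside the 29.2% of all genes, and each of the 4 had p = 0.10 in the exact permutation test. CTX replicate 2 was the lowest sample in 8 of the 9 genes, and CTX replicate 1 was the highest CTX sample in 8. The median log2 fold change of the 9 genes was -0.22, and -0.03 without CTX replicate 2, beside -0.01 over all genes tested.

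**Figure D3:**
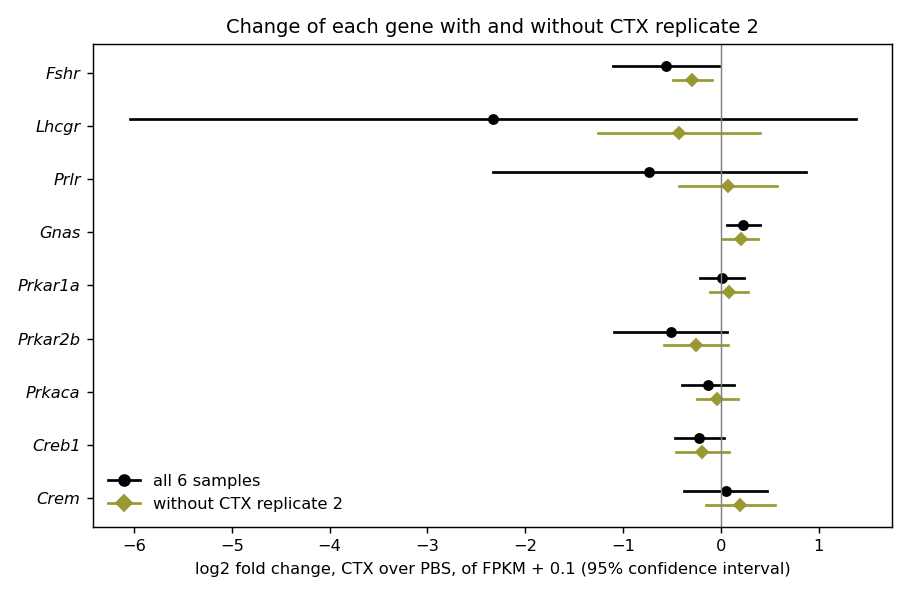
log2 fold change of CTX over PBS on the scale of FPKM + 0.1 (x axis) for each gene (y axis), with 95% confidence intervals from limma, for all 6 samples (circles) and without CTX replicate 2 (diamonds). The interval of *Lhcgr* runs from -6.05 to 1.38 with that sample and from -1.25 to 0.40 without it, and *Gnas* and *Fshr* have intervals on one side of 0 in both fits.

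The FPKM levels of the 9 genes after PBS ran from *Prkar2b* through *Lhcgr*, *Prkar1a*, *Fshr*, *Prkaca*, *Prlr*, *Gnas* and *Creb1* to *Crem*, with no overlap between neighbours in that order. This order depends on the gene lengths used, such as 2079 bases for *Fshr*, 15339 for *Prlr* and 13742 for *Creb1*. After CTX, the range of *Lhcgr* took in those of all the other genes except *Prkar2b*, the range of *Fshr* took in that of *Prkaca*, and the range of *Prlr* took in those of *Gnas* and *Creb1*. The coefficient of variation over the 3 PBS samples was 1.82% to 14.2% per gene, and over the 3 CTX samples it reached 105% for *Lhcgr*, 71.9% for *Prlr*, 32.5% for *Prkar2b* and 30.2% for *Fshr*. *Creb1* varied less after CTX, at 5.22% against 9.66%.

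The genes whose levels followed a receptor most closely were named by the highest Pearson r of log2(FPKM + 0.1) over the 6 samples, as a description. For *Lhcgr* they were *Abcb1b*, a drug efflux transporter, *Idi1*, an enzyme of isoprenoid and cholesterol synthesis, and *Clec14a*, with r from 0.9995 to 0.9999. *Abcb1b* measured 2.86 to 3.07 FPKM after PBS and 3.31, 0.0846 and 1.77 FPKM in CTX replicates 1, 2 and 3, the same order as *Lhcgr*. *Clec14a*, an endothelial surface gene elsewhere, measured 17.5 to 18.7 FPKM after PBS and 18.8, 0.444 and 9.28 FPKM after CTX. For *Fshr* they were *Fam83g*, *Pgam1*, a glycolytic enzyme, and *Gm3571*, with r from 0.9983 to 0.9997. *Pgam1* measured 265 to 283 FPKM after PBS and 246, 152 and 217 FPKM after CTX. For *Prlr* they were *Sav1*, *Gm42528* and *Jarid2*, a chromatin protein, with r from 0.9977 to 0.9984. All of these genes were lowest in CTX replicate 2, and all of the r values share the same 6 samples.

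Of 92 further genes of receptor, cAMP and prolactin signalling, 64 were tested and 2 were called, *Sik1* and *Socs3*. This was 3.1% of the 64, beside 0.961% of all genes tested. Both were higher after CTX. *Sik1*, a kinase that cAMP induces and that holds back the CREB co-activators, measured 10.6, 10.6 and 8.54 FPKM after PBS and 27.8, 20.2 and 33.7 FPKM after CTX. The groups did not overlap (log2 fold change 1.42, standard error 0.20, adjusted p = 0.025, limma). The adjusted p was 2.9e-03 without CTX replicate 2, 0.080 without CTX replicate 3 and 0.11 to 0.12 without 1 of the PBS samples. *Socs3*, a feedback inhibitor of JAK and STAT signalling, measured 22.2, 22.5 and 21.6 FPKM after PBS and 91.0, 86.6 and 110 FPKM after CTX, a 4.34-fold rise (log2 fold change 2.10, standard error 0.10, adjusted p = 8.2e-04, limma).

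At the cell surface, 3 of 10 other receptors that couple to the stimulatory G protein were tested and 0 were called. *Gper1*, an oestrogen-binding receptor, measured 0.838 to 1.15 FPKM after PBS and 0.844 to 1.09 FPKM after CTX. All 8 genes of G protein subunits and their chaperones were tested and 0 were called, with a median log2 fold change of 0.05. *Gnb1* and *Gnb2*, the beta subunits, measured 89.0 to 94.0 and 96.7 to 107 FPKM after PBS and 88.2 to 97.7 and 101 to 102 FPKM after CTX. Of the receptor kinases, arrestins and RGS proteins, which shut receptors and G proteins off, 7 of 9 were tested and 0 were called. *Rgs2* measured 76.7 to 83.1 FPKM after PBS and 87.6, 143 and 103 FPKM after CTX, with no overlap, and had an adjusted p of 0.236 (limma). *Grk6*, a receptor kinase, measured 20.3 to 20.5 and 20.6 to 22.5 FPKM.

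Enzymes that make and break cAMP gave no call. Among adenylyl cyclases, 4 of 10 were tested, led by *Adcy9* at 12.2 to 16.8 FPKM after PBS and 12.6 to 17.0 FPKM after CTX. *Adcy6* measured 8.13 to 8.68 FPKM after PBS and 10.5, 13.4 and 9.31 FPKM after CTX, above the PBS samples in each case (log2 fold change 0.38, adjusted p = 0.216, limma). Among cAMP phosphodiesterases, 8 of 16 were tested, led by *Pde8a* at 22.8 to 23.5 FPKM after PBS and 20.8 to 24.2 FPKM after CTX. *Pde7a* followed, with 4.92 to 5.60 and 4.42 to 5.94 FPKM. The median log2 fold changes of these lists were -0.10 and -0.03.

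Downstream of cAMP, 0 of 5 other PKA subunit and inhibitor genes were called, and *Pkig*, a PKA inhibitor, measured 11.3 to 13.1 FPKM after PBS and 12.2 to 15.1 FPKM after CTX. Of 9 tested A-kinase anchors, which tether PKA, 0 were called. All CTX samples lay above PBS in 1 and below it in 3, beside 29.2% of all genes tested separated either way. The most abundant, *Akap8l* and *Akap8*, measured 57.2 to 66.2 and 38.8 to 42.0 FPKM after PBS and 47.1 to 56.6 and 35.5 to 38.1 FPKM after CTX. EPAC and RAP1, the PKA-independent arm of cAMP signalling, had 0 calls among 3 tested genes. *Rap1b* measured 48.1 to 49.6 FPKM after PBS and 53.6 to 56.6 FPKM after CTX, and *Rap1a* measured 21.8 to 25.6 and 22.1 to 27.5 FPKM. Of the CREB partners and SIK kinases, 1 of 9 was called, *Sik1*, whereas *Atf1*, a CREB relative, measured 31.7 to 33.5 FPKM after PBS and 31.5 to 35.1 FPKM after CTX, and *Sik3* measured 24.8 to 28.1 and 25.9 to 27.8 FPKM.

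Prolactin signalling had 1 call among 8 tested genes, *Socs3*, and a median log2 fold change of -0.12. *Socs2*, a STAT5 target and the other abundant gene of the list, measured 76.9 to 79.7 FPKM after PBS and 74.4, 57.4 and 65.4 FPKM after CTX, with no overlap and an adjusted p of 0.248 (limma). *Stat5a*, named here after its values were seen because it lies beneath PRLR, measured 17.0 to 17.7 FPKM after PBS and 17.7, 10.4 and 13.4 FPKM after CTX. As for *Prlr*, its lowest value was in CTX replicate 2 and its highest CTX value in replicate 1.

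Early CREB target genes, which are also induced by growth factor and stress inputs, rose after CTX. Of 11 listed, 9 were tested and 7 were called, all higher, beside 0.961% of all genes tested. The groups did not overlap in 8 of the 9, beside 29.2% of all genes tested. The list was chosen with earlier results of these data known, so these counts describe the list. *Fos* rose from 384 ± 13.7 to 1385 ± 119 FPKM (SD, n = 3, log2 fold change 1.85, adjusted p = 1.0e-03, limma). *Egr1* rose from 301 ± 21.5 to 899 ± 42.2 FPKM (log2 fold change 1.58, adjusted p = 1.2e-03, limma). The other 5 called genes, *Fosb*, *Junb*, *Nr4a1*, *Nr4a2* and *Btg2*, rose by 1.61 to 2.32 on the log2 scale, and *Nr4a1*, whose promoter is shown above with its CRE cores, rose 5.03-fold. *Nr4a2* lost its call without any 1 PBS sample, where its adjusted p was 0.063 to 0.097, and without CTX replicate 3, where it was 0.058 (limma). These 7 genes were above PBS in CTX replicate 2 too, where *Fos* measured 1445 FPKM beside 1.48 FPKM of *Lhcgr*. The median log2 fold change of the list was 1.78, and 1.79 without CTX replicate 2.

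Of the list, *Per1*, a clock gene, measured 9.06 to 11.4 FPKM after PBS and 17.4 ± 2.57 FPKM after CTX (SD, n = 3) and was not called (adjusted p = 0.057, limma). Without CTX replicate 2 its adjusted p was 0.018 and its log2 fold change 0.87, which is under 2-fold. *Dusp1*, a MAP kinase phosphatase with a full CRE in its promoter, measured 52.8 to 60.6 FPKM after PBS and 102, 42.4 and 91.8 FPKM after CTX. It was the only tested gene of the list that was lowest in CTX replicate 2, and without that sample its log2 fold change was 0.77 (adjusted p = 9.3e-03, limma), also under 2-fold. Both genes were chosen for mention after their values were seen.

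FSH-responsive GC genes gave no call among the 12 tested, with a median log2 fold change of -0.27, or -0.17 without CTX replicate 2. All CTX samples lay below all PBS samples in 7 of the 12 and above them in 1, beside 29.2% of all genes separated either way. CTX replicate 2 was the lowest sample in 8 of them. *Inhbb*, the inhibin and activin beta B subunit, measured 1583 to 1658 FPKM after PBS and 1069, 530 and 895 FPKM after CTX (log2 fold change -1.03, adjusted p = 0.124, limma). Without CTX replicate 2 its adjusted p was 0.033 and its log2 fold change -0.73, which is under 2-fold. *Inha*, the inhibin alpha subunit and the most abundant gene of the list, had a log2 fold change of -0.11 (adjusted p = 0.748, limma). *Cyp11a1* and *Cyp19a1*, the enzymes that begin steroid synthesis and form oestrogen, were chosen after their values were seen. *Cyp11a1* measured 544 to 564 FPKM after PBS and 727, 14.4 and 486 FPKM after CTX, in the order of the *Lhcgr* values, and *Cyp19a1* measured 59.2 to 62.4 FPKM after PBS and 47.6, 6.61 and 32.5 FPKM after CTX.

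LH-responsive GC genes had 1 call among 9 tested, *Sult1e1*, an oestrogen sulfotransferase, which was lower after CTX. Reads numbered 50, 136 and 64 in the PBS samples against 3, 0 and 0 with CTX (adjusted p = 9.9e-03, limma). The call was lost without any 1 PBS sample (adjusted p = 0.052 to 0.088) and with limma's voom on the rebuilt reads (adjusted p = 0.057). *Adamts1*, a matrix protease of ovulation, measured 64.6 to 77.2 FPKM after PBS and 62.5, 19.8 and 51.4 FPKM after CTX, with no overlap (adjusted p = 0.318, limma). *Star*, which carries cholesterol into mitochondria, measured 19.0 to 20.5 FPKM after PBS and 41.7, 1.73 and 24.2 FPKM after CTX, above PBS in replicates 1 and 3 and far below it in replicate 2. The median log2 fold change of the list was -0.94, and -0.32 without CTX replicate 2, and 6 of the 9 genes were lowest in that sample. All CTX samples lay below all PBS samples in 5 of the 9 and above them in 0, beside 29.2% of all genes separated either way.

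**Figure D4:**
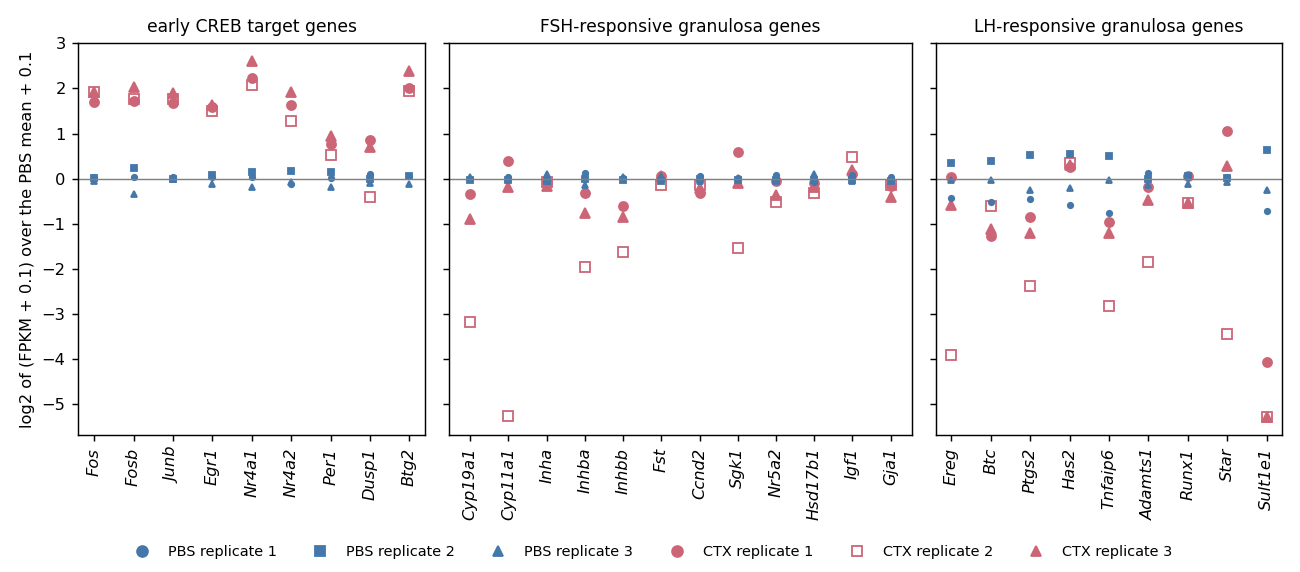
log2 of each sample's FPKM + 0.1 over the PBS mean + 0.1 (y axis) for the tested genes of the 3 target lists (x axis, 1 gene per position), with PBS samples in blue and CTX samples in red. CTX samples lie above 0 for nearly all early CREB targets, CTX replicate 2 included (open squares), while that sample lies lowest for 8 of 12 FSH-responsive and 6 of 9 LH-responsive genes.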

How the data were processed

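RNA-seq libraries were prepared with a NEBNext Ultra RNA kit, and the authors deposited FPKM values per gene with Ensembl identifiers and mm10 (GRCm38) coordinates. The submitters' processing notes name CASAVA 1.8, fastp, HISAT2 2.0.5, featureCounts 1.5.0-p3 and DESeq2 1.20.0. The deposited table also holds the authors' own group means, fold changes and p-values, which were not used. Multiplied by gene length, 100% of values above 0 were whole multiples of 1 read (tolerance 0.05), so reads were rebuilt. The authors' scaling between samples corresponded to factors of 0.982 to 1.03.

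log2(FPKM + 0.1) values of the 14463 genes with a mean of at least 0.5 FPKM were compared by limma 3.58.1 (eBayes with trend, two-sided) in R 4.3.3, with Benjamini-Hochberg adjustment over all of them. On this scale the changes of weakly expressed genes come out too small. The fit was tested on simulated reads. Ratios within samples were compared by a two-sided exact permutation test over 20 assignments. The 9 genes and all lists were chosen with earlier results of these data known. Genes named were the 9, and per list every called gene and the 2 most abundant; others are marked, and 1 gene that the rule names is not reported here. Samples were grouped by their labels, which give no batch. p-values measure the spread between pools of 3 mice. No pair of replicates was a repeat of one library (chi-square of at least 3.81 per gene on average). Alternatives were another pseudocount, filter, scaling, weighting and model, and leaving out each sample. Of 54532 identifiers, 54409 occur in GENCODE M21, in which the coordinates of 7 of the 9 genes are identical; those of *Fshr* and *Lhcgr* are given as deposited. Promoters came from RefSeq, where 8 of the 9 matched.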

Additional observations from a re-analysis of the deposited data

How the results depend on the processing

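With the adjusted p alone and arrayWeights, a combination chosen after seeing the data, 4 of the 9 genes passed (*Fshr*, *Gnas*, *Prkar2b* and *Creb1*) and 47 of the 94 other listed genes tested, against 0 and 10 in the reported fit. With that combination 39.8% of all genes tested passed, and the cause was not tested. At the reported threshold, 0 of the 9 genes were called under each of the 16 alternatives to that fit. *Creb1* and *Crem* fell under the filter of at least 5 FPKM and have no value there. *Lhcgr* kept its direction under all 16, from -3.60 to -0.43 on the log2 scale. *Prlr* was 0.070 without CTX replicate 2, and ran from -1.29 to 0.070 with 1 sample left out. *Prkar1a* was -0.0068 with quantile normalization, -0.016 with library totals, -0.0017 with arrayWeights and -0.017 with voom on rebuilt reads, and with 1 sample left out it ran from -0.071 to 0.087 and *Crem* from -0.093 to 0.20. The other listed genes gave 7 to 10 calls with 1 sample left out. The ratios within samples kept their direction under every alternative run.

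With the replicate block, 6 of the other listed genes and 0 of the 9 were called, and *Sik1*, *Nr4a2*, *Fosb*, *Sult1e1* and *Acta2* were no longer called. Each pool came from different mice, and the labels give no batch. Deviations of PBS and CTX samples of one number correlated at 0.0058 to 0.056, and those of different numbers at -0.076 to 0.059. These values cannot settle whether samples of one number were prepared together. Calls over all genes, 139 in the reported fit, numbered 50 with the block, 657 with arrayWeights, 93 with the filter of at least 5 FPKM and 58 to 208 with 1 sample left out.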
